A study of Mus musculus with 15 samples.

Results

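Iron and copper handling genes were followed across the choroid plexus of mice that lack Add1, which encodes the membrane skeleton protein alpha-adducin. The members were 10 genes chosen by name, namely Trf, Tfrc, Slc11a2, Fth1, Slc40a1, Heph, Cp, Slc31a1, Atp7a and Atp7b, out of 19938 genes with a probe set of their own on the array. Each had 1 probe set, so no choice between probe sets was needed. Of the 10 members 9 passed the filter on low values, among 10069 genes of the whole array that did.

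The study compared 5 Add1 null (knockout) mice, 5 heterozygous mice and 5 wild-type mice, all of the C57BL/6J strain, 3 weeks old and labelled male, an age chosen to precede hydrocephalus. The wild-type animals carry 2 wild-type Add1 alleles, the heterozygotes 1 and the nulls 0. Which part of Add1 was deleted is not stated in the labels, and the wording of the labels does not settle which ventricles the tissue came from. Each animal gave 1 single-colour whole-transcript array from 250 ng of total RNA. Levels are log2 values after RMA, and the level of a gene cannot be set against that of another gene because probes differ in brightness.

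Iron reaches the brain as iron-loaded transferrin, which binds the transferrin receptor, is taken into endosomes and gives up its iron to the divalent metal transporter there. Iron that is not used is kept in ferritin or leaves the cell through ferroportin, and a copper-containing ferroxidase, hephaestin or ceruloplasmin, oxidises it so that transferrin can bind it again. Copper enters by the transporter CTR1 and is loaded into such enzymes or pumped out by the ATPases ATP7A and ATP7B. The choroid plexus epithelium, which secretes cerebrospinal fluid, is known to make transferrin and to carry these copper transporters.

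The tissue and the genotype were checked first. Ttr, the transthyretin gene that marks choroid plexus epithelium, read between 12.85 and 13.19 in all 15 arrays. The mean level of the 12 epithelial markers on the array, of 14 listed, lay between 11.15 and 11.23 in null, between 11.14 and 11.28 in heterozygous and between 11.17 and 11.27 in wild-type arrays, while 1 of the 12 rose and 2 fell in null against wild type. Add1 averaged 7.61 in null arrays and 7.92 in wild-type arrays, a log2 difference of -0.31 (limma adjusted p = 0.0240). The null values lay below all wild-type values. Heterozygous arrays averaged 7.76 and overlapped both other genotypes. Neither null against heterozygous (-0.16, adjusted p = 0.224) nor heterozygous against wild type (-0.16, adjusted p = 0.994) was called, so Add1 did not set the heterozygotes apart. The call of null against wild type ended in 8 of 28 alternative fits, among them the fit without the 2 arrays described next (-0.26, adjusted p = 0.101). Null arrays 1 and 5 carried Xist at 9.09 and 9.69, against at most 3.88 in the other 13 arrays, and lacked the signal of Y-linked genes, which goes against their label; values without them are given beside the results that were called. Heterozygous array 1 was high in neuronal and oligodendrocyte transcripts, with Mbp at 8.36 and Snap25 at 7.72. Among the heterozygous arrays it had the highest Tfrc (6.87) and Fth1 (11.86). It had the lowest Trf (10.44), Heph (6.72), Cp (7.55), Slc31a1 (10.73) and Atp7a (9.27), and was not at either end for Slc11a2 or Slc40a1. Bulk RNA cannot tell fewer cells of a type from less RNA per cell.

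Among the members, hephaestin and transferrin RNA rose in null choroid plexus. No member passed the test for a fall in this fit, while Tfrc did in 2 of 28 alternative fits. Heph, the membrane-bound ferroxidase, rose 1.46-fold and Trf, the secreted iron carrier, 1.31-fold against wild type. These 2 of the 9 tested members stand beside 7.73% of all tested genes called between null and wild type, 4.17% higher in null and 3.56% lower. The members were listed with earlier results of these data known, so the comparison is not a test of the list. With the arrays centred on their medians the split over all genes was 373 higher and 508 lower, in place of 420 and 358, and the same number of members was called. The median log2 difference of the 9 members was 0.06, beside 0.01 over all tested genes, so the 9 members as a list did not move one way: 5 differences were positive and 4 negative.

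**Figure D1:**
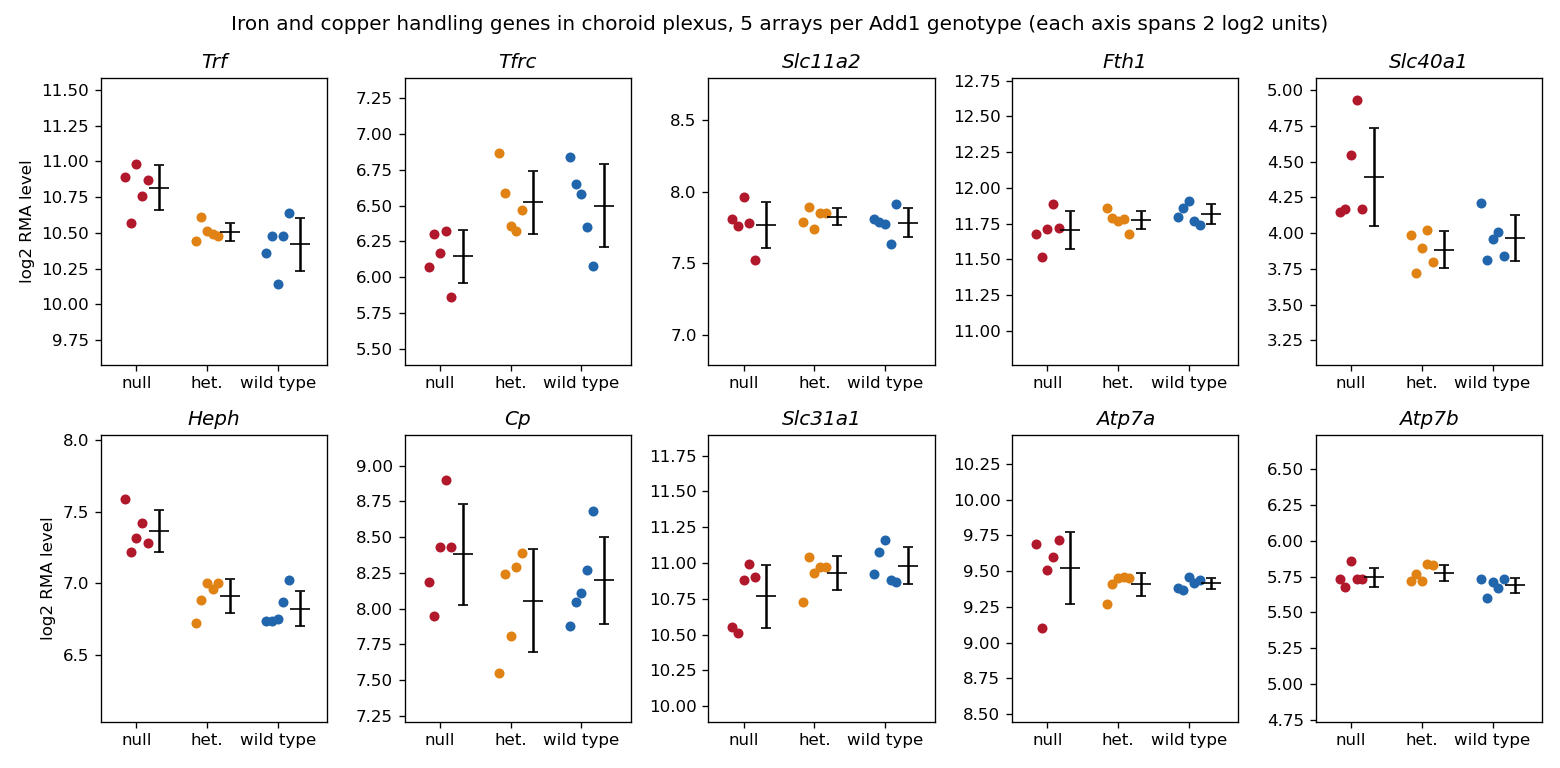
Log2 RMA levels of the 10 genes in 5 null, 5 heterozygous and 5 wild-type arrays, with 1 point per animal, the mean (dash) and the SD (bar) beside each group, and axes of equal span around each gene's mean. The null points of Heph (7.22 to 7.59) lie above all others, those of Trf overlap the wild-type range at 1 array, and those of Slc40a1 stay under the filter value of 5.33.

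Transferrin carries ferric iron in plasma and cerebrospinal fluid. Trf (probe set 10596148, gene on chromosome 9) read 10.89, 10.57, 10.98, 10.76 and 10.87 in the null arrays. The heterozygous arrays read 10.44, 10.61, 10.51, 10.49 and 10.48, and the wild-type arrays 10.36, 10.48, 10.14, 10.48 and 10.64. In 4 of 5 null animals Trf was above every wild-type value, and null array 2, the exception, lay under the highest wild-type array and under the highest heterozygous array. Trf averaged 10.81 ± 0.157 in null and 10.42 ± 0.185 in wild-type animals (SD, n = 5 each). The log2 difference was 0.39 (SE 0.0866, limma adjusted p = 0.0110), with a 95% interval from 0.21 to 0.58. The exact two-sided permutation test over all regroupings of 5 against 5 arrays gave p = 0.0159, where the smallest possible p is 0.00794. Without the null arrays with Xist signal the difference was 0.35 (adjusted p = 0.0700), and with the number in each animal's description as a covariate it was 0.32 (adjusted p = 0.196), so that the call ended in both fits. It also ended with Xist signal as a covariate (0.35, adjusted p = 0.0746), and it held in the other 25 of 28 alternative fits.

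Oligodendrocytes make transferrin too, so their markers are given beside it. The mean of the 9 oligodendrocyte markers on the array, of 10 listed and 7 above the filter, ran from 5.42 to 6.32 in null, from 5.77 to 6.73 in heterozygous and from 5.68 to 6.14 in wild-type arrays. Opalin and Ermn lay under the filter. Of the 7 tested markers 0 were called between null and wild type and 1 had an unadjusted p under 0.05 by limma, with a median log2 difference of 0.01. Of all 10069 tested genes 2421 had such an unadjusted p. The neural marker covariate is the mean of the tested oligodendrocyte, astrocyte and neuron markers. With it Trf differed between null and wild type by 0.40 (limma adjusted p = 0.0106). The part of oligodendrocytes alone in the Trf result was not tested.

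The transferrin receptor Tfrc is the port through which cells take up iron-loaded transferrin, and its messenger RNA is known to be stabilised when cells lack iron. Tfrc (probe set 10435075, chromosome 16) read 6.07, 6.30, 6.17, 6.32 and 5.86 in null arrays. The heterozygous arrays read 6.87, 6.59, 6.36, 6.32 and 6.47, and the wild-type arrays 6.84, 6.65, 6.58, 6.35 and 6.08. Wild-type array 5 sat within the null range and the other wild-type arrays above it. Tfrc differed by -0.36 between null and wild type (SE 0.132, 95% interval -0.63 to -0.08) and by -0.38 between null and heterozygous animals, and neither passed after adjustment (adjusted p = 0.107 and 0.0802). Leaving out wild-type array 5 brought a call (-0.46, adjusted p = 0.0307), as did the neural marker covariate (-0.40, adjusted p = 0.0443). Without the null arrays with Xist signal it was -0.24 (adjusted p = 0.398). Against heterozygous animals Tfrc passed in 1 alternative, without null array 2 (-0.42, adjusted p = 0.0489).

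Tfrc is also known as a target of hypoxia-inducible factors, and its promoter is shown as an example. The RefSeq window of its first listed start, in GRCm38.p6 at chr16:32608646-32608945 on the plus strand, runs from 250 bases before the start to 50 after it. Capitals mark matches, on either strand, to the hypoxia response core ACGTG or GCGTG and to the metal response core TGCGCNC or TGCACNC.
Tfrc: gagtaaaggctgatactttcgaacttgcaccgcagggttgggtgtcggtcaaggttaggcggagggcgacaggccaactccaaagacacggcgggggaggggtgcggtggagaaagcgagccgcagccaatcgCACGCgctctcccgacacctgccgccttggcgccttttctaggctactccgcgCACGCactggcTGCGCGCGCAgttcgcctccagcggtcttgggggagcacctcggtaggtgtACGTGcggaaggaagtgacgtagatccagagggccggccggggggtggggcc
The window held 3 hypoxia core matches and 2 metal core matches, which lay on opposite strands and overlapped each other. Among all 32851 windows, 43.8% held a hypoxia core and 25.7% a metal core. The second listed start of Tfrc had 3 hypoxia cores and no metal core. Of the 10 members 6 were in the table, and Atp7a held 5 hypoxia cores and 2 metal cores, while neither window of Cp held either motif.

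Slc11a2, the divalent metal transporter that moves iron out of the endosome, showed no difference between genotypes that passed the test. It averaged 7.77 ± 0.158 in null, 7.82 ± 0.0590 in heterozygous and 7.78 ± 0.101 in wild-type animals (SD, n = 5 each). The difference of null from wild type was -0.02 (95% interval -0.17 to 0.14, adjusted p = 0.916).

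Fth1 encodes the ferritin heavy chain, the ferroxidase subunit of the iron store, whose synthesis is known to be set mainly at translation. It read 11.68, 11.52, 11.71, 11.89 and 11.72 in null arrays and between 11.74 and 11.91 in wild-type arrays. In 4 of 5 null animals it lay below every wild-type value, and in null array 4 it was near the top of that range. The difference was -0.11 (SE 0.0641, 95% interval -0.25 to 0.02, adjusted p = 0.302), which did not pass. Processed copies of ferritin genes exist in mammalian genomes, and whether they add to this probe set was not tested.

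Slc40a1 encodes ferroportin, the exporter of iron. Its probe set lay under the filter value of 5.33 in all 15 arrays, where array differences are compressed, so it did not enter the fit over the tested genes. The values were 4.15, 4.17, 4.55, 4.93 and 4.17 in null arrays, between 3.72 and 4.02 in heterozygous arrays and between 3.81 and 4.21 in wild-type arrays. The null arrays lay above all heterozygous arrays, and null arrays 3 and 4 lay above all wild-type arrays. Such non-overlap of null and heterozygous arrays held for 5.76% of the tested genes, among which Slc40a1 was not. In the fit without a filter the log2 difference was 0.43 against wild type (adjusted p = 0.0831) and 0.51 against heterozygous animals (adjusted p = 0.0425). In that fit Trf was not called against heterozygous animals (0.31, adjusted p = 0.0664). The fit without the arrays with Xist signal did not include Slc40a1. The exact permutation test gave p = 0.0317 for null against wild type and p = 0.00794, the smallest possible, for null against heterozygous.

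Hephaestin is the ferroxidase that works beside ferroportin, known best from the mouse intestine, where its loss causes iron deficiency anaemia. Heph (probe set 10600857, chromosome X) read 7.59, 7.22, 7.32, 7.42 and 7.28 in null arrays. The heterozygous arrays read 6.72, 6.88, 7.0, 6.96 and 7.0, and the wild-type arrays 6.74, 6.74, 6.75, 6.87 and 7.02. All 5 null animals were above all heterozygous and all wild-type animals, while these 2 genotypes overlapped.

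Heph averaged 7.37 ± 0.145 in null and 6.82 ± 0.123 in wild-type animals (SD, n = 5 each). The log2 difference was 0.54 (SE 0.0793, limma adjusted p = 0.000939), with a 95% interval from 0.37 to 0.71, and the exact permutation p was 0.00794, the smallest possible. Heph was the 1 tested member of 9 with every null value outside the wild-type range, and over all tested genes this held for 5.96%. Because Heph is X-linked and 2 null arrays carried Xist, the fit was repeated without them: the difference was 0.50 (adjusted p = 0.00460). It was called in all 28 alternative fits, with differences between 0.49 and 0.59.

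**Figure D2:**
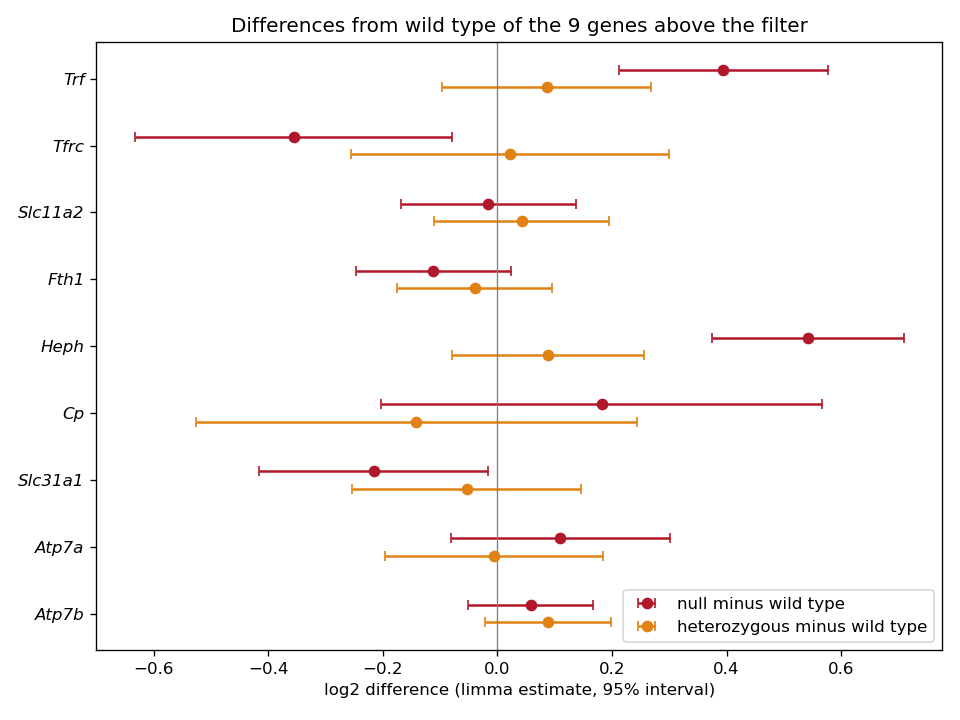
Log2 differences from wild type of the 9 tested genes, as limma estimates with 95% intervals, for null animals (red) and heterozygous animals (orange), 5 arrays per genotype. The null intervals of Heph and Trf lie above 0, those of Tfrc and Slc31a1 lie below 0 without passing the adjusted threshold, and all heterozygous intervals include 0.

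Ceruloplasmin, the other copper ferroxidase, varied widely within every genotype. Cp (probe set 10490989, chromosome 3) read 8.19, 7.95, 8.43, 8.90 and 8.43 in null arrays. The heterozygous arrays read 7.55, 8.24, 7.81, 8.29 and 8.39, and the wild-type arrays 7.88, 8.05, 8.11, 8.27 and 8.68. The difference of null from wild type was 0.18, no larger than its SE of 0.183 (adjusted p = 0.587), and the 95% interval ran from -0.20 to 0.57. With the description number as a covariate the sign of this uncalled difference was negative, -0.30 (adjusted p = 0.533).

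On the copper side, the importer Slc31a1 (CTR1) read 10.55, 10.51, 10.88, 10.99 and 10.90 in null arrays and between 10.87 and 11.16 in wild-type arrays. Null arrays 1 and 2 lay below every other array and the other 3 within the wild-type range. The difference was -0.22 (SE 0.0947, 95% interval -0.42 to -0.02, adjusted p = 0.171), which did not pass, and none of its 28 alternative fits gave a call.

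Atp7a, the X-linked copper ATPase mutated in Menkes disease, read 9.69, 9.10, 9.51, 9.60 and 9.72 in null arrays and between 9.37 and 9.46 in wild-type arrays. In 4 of 5 null animals it was above all wild-type values, and null array 2 was below them all. The difference was 0.11 (SE 0.0906, 95% interval -0.08 to 0.30, adjusted p = 0.493). It passed without null array 2 (0.22, adjusted p = 0.0216, and 0.22, adjusted p = 0.0166, against heterozygous animals). Without the null arrays with Xist signal, which held the highest Atp7a values (9.69 and 9.72), it was -0.01 (adjusted p = 0.963). With Xist signal as a covariate it was also -0.01 (adjusted p = 0.963). The cause was not tested. Atp7b, the copper ATPase mutated in Wilson disease, lay close to the filter value, between 5.68 and 5.86 in null, between 5.72 and 5.84 in heterozygous and between 5.60 and 5.73 in wild-type arrays (null minus wild type 0.06, adjusted p = 0.535).

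With 1 wild-type allele left, no member was called, as for 0% of all tested genes. limma gave 0 calls between heterozygous and wild-type animals, with 381 genes and 0 members at an unadjusted p under 0.05. Heph averaged 6.91 ± 0.118 in heterozygous and 6.82 ± 0.123 in wild-type animals (SD, n = 5 each). The difference of 0.09 had a 95% interval of -0.08 to 0.26, which excludes a rise as large as that of the null animals (0.54). Trf differed by 0.09 as well (95% interval -0.10 to 0.27). The interval of Cp, from -0.53 to 0.24, was the widest of the 9.

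Null against heterozygous animals, which share the null arrays with the first comparison, gave the same 2 calls. Heph differed by 0.45 (SE 0.0793, adjusted p = 0.00361) and Trf by 0.31 (SE 0.0866, adjusted p = 0.0386), beside 7.93% of tested genes called and 4.32% called higher in null. Heph was again the 1 tested member whose arrays did not overlap, which held for 5.76% of tested genes. The Trf call ended in 13 of 28 alternative fits, among them the fit without the arrays with Xist signal (0.26, adjusted p = 0.169) and those without null array 1, 3, 4 or 5 or heterozygous array 1, 3, 4 or 5 (0.27 to 0.32, adjusted p 0.0501 to 0.101), and the Heph call ended in 1, with the description number as a covariate (0.42, adjusted p = 0.0725). Without the arrays with Xist signal Heph differed by 0.41 (adjusted p = 0.0173).

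A slope on the number of wild-type alleles, which uses the same arrays, was also called for these 2 members, beside 5.64% of tested genes. Per wild-type allele Heph changed by -0.27 (SE 0.0460, adjusted p = 0.00581) and Trf by -0.20 (SE 0.0450, adjusted p = 0.0195). The steps were unequal: for Heph 0.45 lay between null and heterozygous and 0.09 between heterozygous and wild type. Neither slope passed with the description number or Xist signal as a covariate, and without the arrays with Xist signal they were -0.23 (adjusted p = 0.0331) for Heph and -0.17 (adjusted p = 0.118) for Trf.

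That number, whose meaning the labels do not give, was partly aligned with genotype, at 444 to 483 in null animals, up to 460 in heterozygous animals and up to 451 in wild-type animals. Of the 15 arrays 11 shared a number with another, over 4 numbers: 429 with heterozygous 2 and wild-type 1 and 2, 432 with heterozygous 3 and 4 and wild-type 3 and 4, 460 with null 2 and heterozygous 5, and 468 with null 3 and 4. No number held both null and wild-type animals, so these genotypes cannot be compared within a number. With the number as a random block, a fit chosen after seeing the data, Heph differed between null and wild type by 0.54 (adjusted p = 0.00109) and Trf by 0.39 (adjusted p = 0.0122). Wild-type array 5 carried the highest number of its group, 451. Among the wild-type arrays it had the highest Trf (10.64), Heph (7.02) and Cp (8.68) and the lowest Tfrc (6.08). It also had their highest mean of stromal (8.02), endothelial (6.45), astrocyte (6.45) and macrophage (5.18) markers and their lowest of erythroid markers (4.54). The epithelial, oligodendrocyte and neuron means were highest in other wild-type arrays. Number and cell content cannot be told apart in this array. Heph kept its call against wild type with the number as a covariate (0.51, adjusted p = 0.0372), and Tfrc differed by -0.10 (adjusted p = 0.830).

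**Figure D3:**
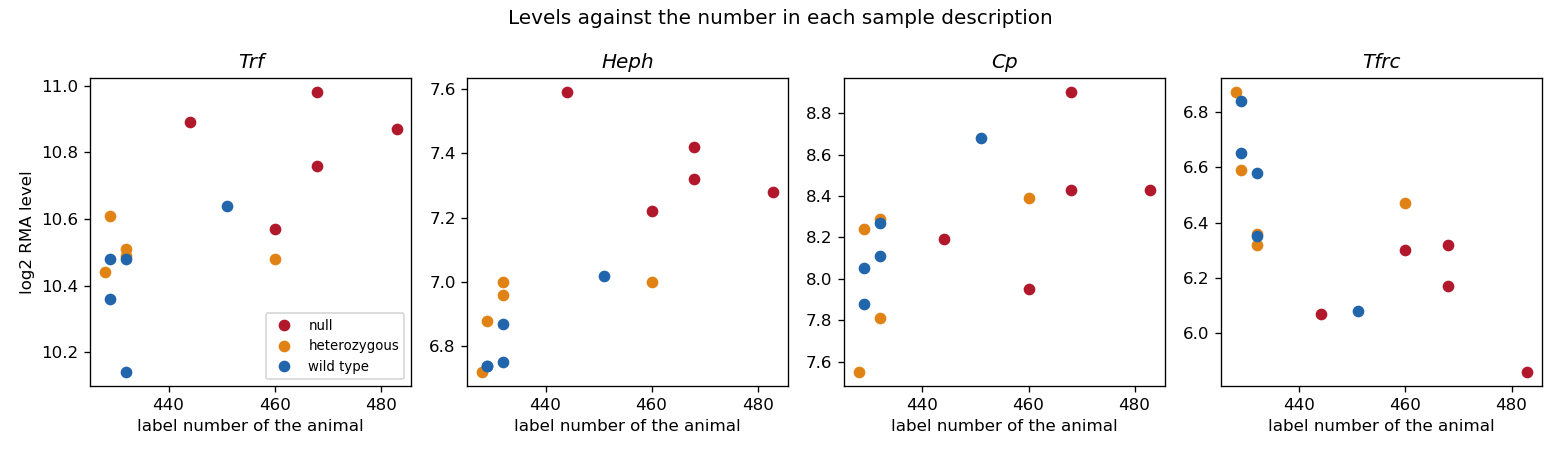
Log2 levels of Trf, Heph, Cp and Tfrc against the number before the dot in each sample's description, 1 point per array, coloured by genotype (5 arrays each). Wild-type array 5, at 451, sits highest of its group for Trf, Heph and Cp and lowest for Tfrc.

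Markers of other cell types are given here because several members are made by more than one cell type. The mean of 8 stromal markers ran from 7.94 to 8.33 in null, from 7.71 to 8.07 in heterozygous and from 7.66 to 8.02 in wild-type arrays, and 3 of the 8 rose and 1 fell against wild type. The mean of 9 astrocyte markers ran from 6.34 to 7.20 in null, from 6.22 to 7.29 in heterozygous and from 6.26 to 6.45 in wild-type arrays. All 8 tested markers were positive in null against wild type, with a median log2 difference of 0.42. By limma 4 of them had an unadjusted p under 0.05 and 1 was called. Of all 10069 tested genes 5404 were positive and 2421 had an unadjusted p under 0.05 in this comparison. Endothelial markers, 9 on the array and 5 above the filter, ran from 6.26 to 6.71 in null, from 6.20 to 6.29 in heterozygous and from 6.10 to 6.45 in wild-type arrays. Against wild type 2 of the 5 were called higher, while 3 differences were positive and 2 negative. Of 8 macrophage markers 3 passed the filter, with a mean over all 8 of 4.84 to 5.39 in null, 4.74 to 5.01 in heterozygous and 4.87 to 5.18 in wild-type arrays. Of 7 erythroid markers listed 4 were on the array and 1 passed. No tested macrophage or erythroid marker was called against wild type. With the neural marker covariate, which pools astrocyte, oligodendrocyte and neuron markers, Heph differed between null and wild type by 0.56 (adjusted p = 0.000602). The part of stromal and endothelial cells in the rises of Heph and Trf was not tested, nor was that of astrocytes alone.

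Deviations from the genotype means were correlated over the 15 arrays for 36 pairs of the 9 tested members, and none passed after adjustment. By Pearson's r the smallest p belonged to Tfrc and Heph, with r = -0.65 (permutation p = 0.0150, adjusted p = 0.305) and Spearman's rho = -0.55 (permutation p = 0.0456, adjusted p = 0.274). By Spearman's rho it belonged to Fth1 and Slc31a1, with rho = 0.69 (permutation p = 0.0131, adjusted p = 0.274) and r = 0.62 (permutation p = 0.0393, adjusted p = 0.305). Some values changed when 2 arrays were left out. Without the 2 arrays farthest from the median of the first gene, r was -0.42 for Tfrc and Heph and 0.28 for Fth1 and Slc31a1. For Atp7a and Heph it was 0.82 in place of 0.55, and for Fth1 and Heph -0.74 in place of -0.15.

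Over all 15 arrays the genes whose levels were most like Heph were Cfap54, a gene of the ciliary axoneme (r = 0.97), Apoe, the lipid carrier apolipoprotein E (r = 0.95), and the junction scaffold Tjp1 (r = 0.94). For Trf they were Msi2, Serinc5 and Shank2 (r = 0.93, 0.93 and 0.91). After removing genotype means the most alike were Ddx17, Kdm7a and Rad50 for Heph (r = 0.90, 0.89 and 0.89) and Msi2, Trp53rka and Kidins220 for Trf (r = 0.88, 0.87 and 0.85). These values describe 15 arrays searched over all tested genes and carry no test.

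Beyond the members, 79 further genes of iron and copper handling were listed, 74 of them were on the array and 58 were tested. Against wild type 3 rose and 2 fell, beside the 4.17% and 3.56% of all tested genes, with a median log2 difference of -0.01. These lists too were written with earlier results of these data known. The 15 tested genes of iron uptake and transport, the 2 of iron storage and release and the 14 of copper chaperones, carriers and stores held no call. Calls came from iron sensing and the hepcidin axis (2 of 8, both up), heme handling and iron-sulfur assembly (1 up and 1 down of 14) and copper enzymes (1 down of 5).

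**Figure D4:**
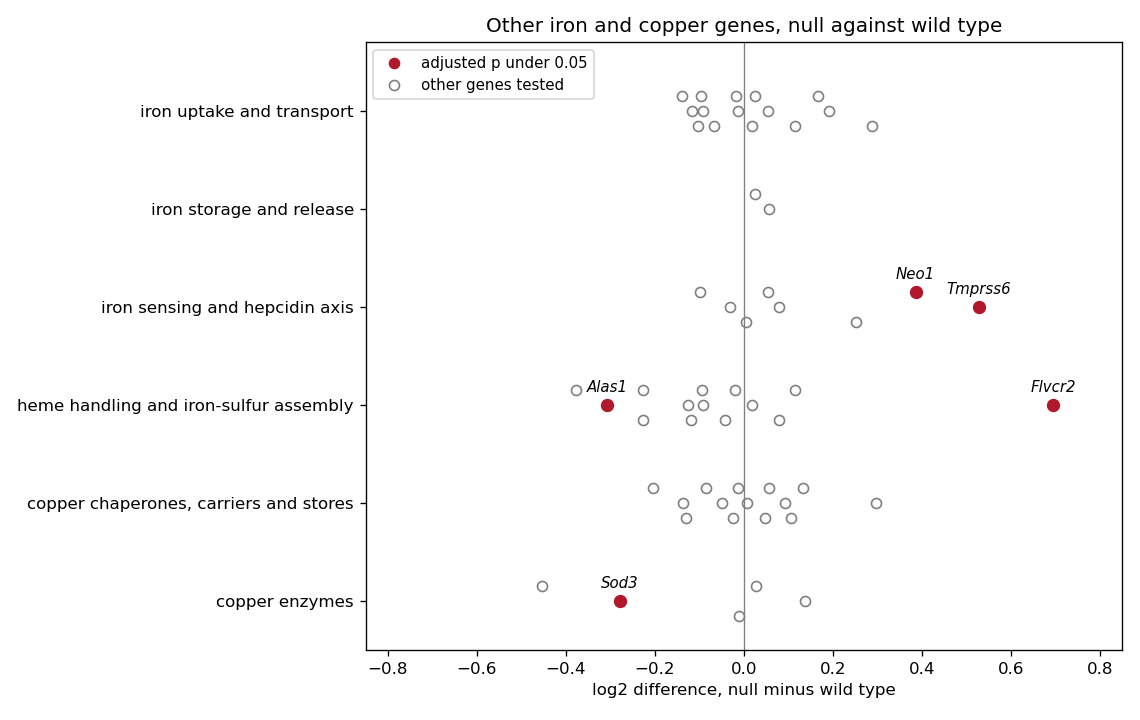
Log2 differences, null minus wild type, of the 58 tested iron and copper genes outside the 10 members, 1 point per gene, by list, with genes at an adjusted p under 0.05 filled and named. Flvcr2, Tmprss6 and Neo1 lie to the right and Alas1 and Sod3 to the left, with the other points on both sides of 0.

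Flvcr2 had the largest difference among these genes. It encodes a membrane transporter reported to carry heme and, in later work, choline, and is mutated in Fowler syndrome, a human disease of brain vessels with enlarged ventricles. Flvcr2 read 8.05, 8.23, 8.20, 7.99 and 7.99 in null arrays, against 7.30, 7.29, 7.48, 7.62 and 7.29 in wild-type arrays. All null arrays were above all wild-type and all heterozygous arrays (7.21 to 7.73). The difference from wild type was 0.70 (SE 0.0947, adjusted p = 0.000583), and the call held in all 28 alternative fits, between 0.66 and 0.86, with 0.74 (adjusted p = 0.00285) without the arrays with Xist signal. Its promoter is shown as that of the strongest rise in iron-linked genes, from RefSeq in GRCm38.p6 at chr12:85746289-85746588 on the plus strand, with the same motifs in capitals.
Flvcr2: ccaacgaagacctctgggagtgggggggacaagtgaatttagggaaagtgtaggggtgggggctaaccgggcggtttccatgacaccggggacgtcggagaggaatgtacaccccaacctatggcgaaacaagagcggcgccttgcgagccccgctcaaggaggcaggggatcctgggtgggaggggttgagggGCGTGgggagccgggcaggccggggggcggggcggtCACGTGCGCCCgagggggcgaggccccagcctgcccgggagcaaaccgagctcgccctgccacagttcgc
This window held 3 hypoxia core matches, of which a pair overlapped on opposite strands, and 1 metal core match, which overlapped that pair.

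Tmprss6 and Neo1 act on hemojuvelin, the coreceptor that drives the iron hormone hepcidin in the liver: Tmprss6 encodes the protease that cleaves it and Neo1 encodes neogenin, a netrin receptor that binds it. The genes of hemojuvelin and hepcidin were listed too but were not among the 8 genes of that list that were tested. Tmprss6 read 6.59, 6.35, 6.23, 5.96 and 6.13 in null arrays and between 5.56 and 5.87 in wild-type arrays, with no overlap (0.53, SE 0.0929, adjusted p = 0.00303). Neo1 read 8.77, 8.26, 8.57, 8.40 and 8.39 in null arrays and between 7.95 and 8.30 in wild-type arrays (0.39, SE 0.0939, adjusted p = 0.0191). The Tmprss6 call held in all 27 alternative fits in which it was tested, with 0.46 (adjusted p = 0.0102) without the arrays with Xist signal. Its level lay close to the filter value, as that of Atp7b did, and the stricter filter left it out. The Neo1 call ended in 6 of 28, among them the fits without null array 1 or 3 or wild-type array 2 (0.31 to 0.36, adjusted p 0.0532 to 0.0539) and without the null arrays with Xist signal (0.32, adjusted p = 0.0781). Both were called against heterozygous animals too, at 0.56 (adjusted p = 0.00256) for Tmprss6 and 0.44 (adjusted p = 0.0105) for Neo1. Flvcr2 was also called, at 0.63 (adjusted p = 0.00158). Without the arrays with Xist signal these 3 were 0.49 (adjusted p = 0.00760), 0.37 (adjusted p = 0.0471) and 0.67 (adjusted p = 0.00615). The Neo1 call against heterozygous animals ended in 2 of 28 alternative fits. These had the description number (0.46, adjusted p = 0.0964) or Xist signal (0.37, adjusted p = 0.0776) as a covariate.

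Alas1, the rate-limiting enzyme of heme synthesis, fell to 9.08 ± 0.120 in null animals, against 9.39 ± 0.156 in wild-type animals (SD, n = 5 each), a log2 difference of -0.31 (SE 0.0766, adjusted p = 0.0218). Its call ended in 8 of 28 alternative fits, including the fits without null array 3 or wild-type array 1, 2 or 3 (-0.30 to -0.28, adjusted p 0.0575 to 0.0645), the description number covariate (-0.11, adjusted p = 0.608) and the fit without the arrays with Xist signal (-0.31, adjusted p = 0.0544). Sod3, the extracellular copper and zinc superoxide dismutase, averaged 6.98 ± 0.197 in null and 7.26 ± 0.0719 in wild-type animals (SD, n = 5 each), a difference of -0.28 (SE 0.0775, adjusted p = 0.0367). That call ended in 12 of 28 alternative fits, including those without null array 1 or 3 or wild-type array 1, 2, 3 or 5 (-0.29 to -0.22, adjusted p 0.0576 to 0.102) and without the arrays with Xist signal (-0.21, adjusted p = 0.145).

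Between heterozygous and wild-type animals 0 of the 58 genes were called, and 3 had an unadjusted p under 0.05. They were Fbxl5, the iron-sensing ubiquitin ligase subunit that removes iron regulatory protein (-0.17), Ftl1, the ferritin light chain (0.17), and Commd1, a copper and trafficking adaptor (-0.15), each with an adjusted p of 0.994.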

How the data were processed

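Choroid plexus RNA of 15 mice was measured on 1 Affymetrix array each. The deposited values are log2 levels of 35556 probe sets, made by the authors with Affymetrix Expression Console 1.1 and RMA (per the submitters' processing notes), which corrects background, normalizes quantiles and summarises probes. The log base was read from the values (1.57 to 13.89). The probe annotation was that of the platform, updated through gene identifiers to GRCm38.p6; 21789 probe sets had 1 symbol, 1621 several and 12146 none. The probe set with the highest mean was kept per gene. Genes above 5.33, the median of all values of probe sets with 1 symbol, in at least 5 arrays were tested.

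limma 3.58.1 (R 4.3.3) fitted all 15 arrays with 1 mean per genotype and no covariate, and Benjamini-Hochberg adjusted p-values over all 10069 tested genes under 0.05 were called. The allele slope was a separate fit. Single values were also tested by exact two-sided permutation. Heme, iron and copper lists and the naming rule (all members, Add1, called genes of the lists or the 3 smallest p-values, and the 3 genes most like a called member) were written with earlier results of these data known, as were the members. The procedure was tested on simulated data. Every array was counted as 1 animal. Of 105 pairs of arrays 0 were identical, which shows only that no set of values was repeated. It cannot show that each array came from its own animal. With 5 arrays per genotype the number of animals limits the precision. Deviations correlated above 0.1 in 4 of 15 pairs of arrays with the same replicate number. Pairs with different numbers were not set beside them, so whether replicate numbers pair the arrays was not settled. Alternatives were other filters, probe sets, scalings, variance models, covariates and samples, and a random block of animals that share a description number, which was added after seeing the data and is not among the 28 alternative fits counted in the text.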

Additional observations from a re-analysis of the deposited data

Results flagged for a closer look

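In 57 groups of 5 arrays, 3 single values stood apart from the other 4 by Dixon's test at the 95% level, where chance flags about 1 group in 20. Atp7a read 9.27 in heterozygous array 1, against 9.41 to 9.46 in the other heterozygous arrays. This was the array high in neuronal and oligodendrocyte transcripts. Atp7b read 5.86 in null array 3, against 5.68 to 5.73 in the other null arrays. Alas1 read 9.12 in wild-type array 5, against 9.42 to 9.52 in the other wild-type arrays, and this was the array with the highest description number of its group.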

How the results depend on the processing

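Settings were changed one at a time, 28 planned for most genes. No called value changed sign. Of the 10 genes, 2 were called between null and wild-type animals, and 1 with the description number as a covariate, 1 with Xist signal as a covariate and 1 without the arrays with Xist signal; leaving out 1 array gave 2 to 3. Null against heterozygous animals gave 2, and 0 with the description number, 1 with Xist signal as a covariate, 1 without the arrays with Xist signal and 1 with the replicate block; leaving out 1 array gave 1 to 4. The allele slope gave 2, and 0 with the description number, 0 with Xist signal as a covariate and 1 without the arrays with Xist signal; leaving out 1 array gave 1 to 3. Of the other iron and copper genes 5 were called between null and wild type, against 9 with array weights, 9 with median centring, 3 with only the 2 genotypes in the fit, 2 with the description number, 2 with Xist signal as a covariate and 2 without those arrays; leaving out 1 array gave 2 to 12. Null against heterozygous gave 3, against 11 with array weights, 7 with median centring, 7 with quantile normalization again and 5 with a variance trend; leaving out 1 array gave 3 to 15. The causes were not tested.

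Over all genes 778 were called between null and wild type, 518 with the replicate block, 461 with only the 2 genotypes, 257 with the description number, 240 with Xist signal as a covariate, 396 without those arrays and 1320 with array weights; leaving out 1 array gave 390 (wild-type 1) to 1418 (null 2), and 356 to 1815 for null against heterozygous, where 798 were called. The allele slope called 568, 162 to 697 without 1 array, 1 with the description number and 313 with that number as a random block. The shares of all genes called move with these counts. The random block, added after seeing the data, left the counts of members and of other iron and copper genes as they were. Correlations of arrays with the same replicate number ran from -0.25 to 0.24, with no other pairs set beside them, so pairing was not settled. The planned use of other probe sets gave no value, since each of the 10 genes has 1. Signal near background limits Slc40a1, Atp7b and Tmprss6.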
